A study of Mus musculus with 4 samples.

Results

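The PAX genes of the mouse were examined, with Pax7 at their centre, in whole lungs at E16.5. Rows of the table were taken by gene symbol, which gave all 9 members, Pax1 to Pax9, of 22556 genes. The set was chosen because Pax7 lay near 0 in Control libraries and above 2 FPKM in Shh-Stk11 libraries. FPKM divides the reads of a gene by the length of its transcript and the reads of the library, so that levels can be compared between genes. Pax7 was therefore described without a test, whereas its relatives and the genes associated with PAX factors were chosen by name.

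The 2 Control libraries came from Shh-Cre; Stk11F/+ embryos, which carried the driver with 1 floxed and 1 intact Stk11 allele. The 2 Shh-Stk11 libraries came from Shh-Cre; Stk11F/F embryos, in which both alleles were floxed. Shh-Cre acts in lung endoderm, from which the epithelium arises, while RNA was taken from the whole lung, so that mesenchyme, vessels and blood contributed to every library with their Stk11 intact. The strain was labelled C57BL/6, the methods of the study described mixed backgrounds, and neither litter nor pooling of embryos was given for these libraries. The methods called the replicates independent and biological. The values corresponded to 31.2 M to 38.5 M reads per library.

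PAX proteins are transcription factors that bind DNA through a paired domain and specify organs and cell lineages in the embryo. They fall into subgroups of close relatives. Pax1 and Pax9 act in the sclerotome and the pharyngeal pouches, Pax2, Pax5 and Pax8 in kidney, thyroid, midbrain and B cells, Pax3 and Pax7 in muscle progenitors, neural crest and dorsal neural tube, and Pax4 and Pax6 in eye and pancreatic islets. Pax7 is best known as the marker of satellite cells, the stem cells of skeletal muscle. None of these is among the factors that define the lung epithelium, where Nkx2-1 has that role.

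The tissue and the targeted gene were checked first. Nkx2-1 lay between 170 and 207 FPKM and the surfactant gene Sftpc between 8005 and 17426 FPKM, so lung epithelium was present in every library. Stk11 was at 44.0 and 45.5 FPKM in the Control libraries and at 29.5 and 26.0 FPKM in the Shh-Stk11 libraries, and the genotypes did not overlap. Its log2 fold change was -0.69 with an SE of 0.125 (limma, adjusted p = 0.0499, n = 2 per genotype). The adjusted p lay between 0.0449 and 0.26 over 13 other settings and was past the threshold in 2 of them. Among the 13770 genes tested with limma at an adjusted threshold of 0.05, 135 were higher and 178 were lower in Shh-Stk11, together 2.27%.

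Pax7 was listed at 0 FPKM in Control 1 and at 0.00777 FPKM in Control 2. It reached 2.72 FPKM in Shh-Stk11 1 and 2.19 FPKM in Shh-Stk11 2. Both Shh-Stk11 libraries were high, both Controls were at or near 0, and the genotypes did not overlap. The mean was 0.00389 ± 0.0055 FPKM in Control against 2.45 ± 0.378 FPKM in Shh-Stk11 (SD, n = 2 each). The Shh-Stk11 libraries differed from each other by 1.24-fold. Because Pax7 was selected on this contrast, these values carry no p.

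For 75.1% of the low genes checked, the FPKM values were whole multiples of what a single read is worth, which allowed the reads behind each PAX gene to be estimated. For Pax7 they came to 0 reads in Control 1, 1 read in Control 2, 342 reads in Shh-Stk11 1 and 296 reads in Shh-Stk11 2. All 4 values were whole to within 0.00047 of a read, and the step corresponded to a transcript of about 4270 bases. The 95% Poisson interval from counting was 2.44 to 3.03 FPKM in Shh-Stk11 1 and 1.94 to 2.45 FPKM in Shh-Stk11 2. For the 0 reads of Control 1 the same interval reached 0.0238 FPKM, and the floor of 3 reads used for counts of 0 corresponded to 0.0193 FPKM. Scaled to depth, the 638 reads of the Shh-Stk11 libraries against the 1 read of the Controls gave a ratio of 693, with an exact 95% interval of 124 to 27400. With 1 Control read this interval is wide. It covers counting error only, not the spread between embryos.

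On the log2(FPKM + 0.1) scale the difference of Pax7 between the genotype means was 4.61. It was 1.78 with a pseudocount of 1 and 7.52 with a pseudocount of 0.01, where the mean Control level lay below each pseudocount. At its level, Pax7 stood above 35.1% of the genes with a value over 0 in Shh-Stk11 1 and above 32.8% of those in Shh-Stk11 2. It passed the filter of a mean of 0.5 FPKM only through the Shh-Stk11 libraries. In RNA of whole lungs, more cells with Pax7 RNA and more Pax7 RNA per cell cannot be told apart.

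**Figure D1:**
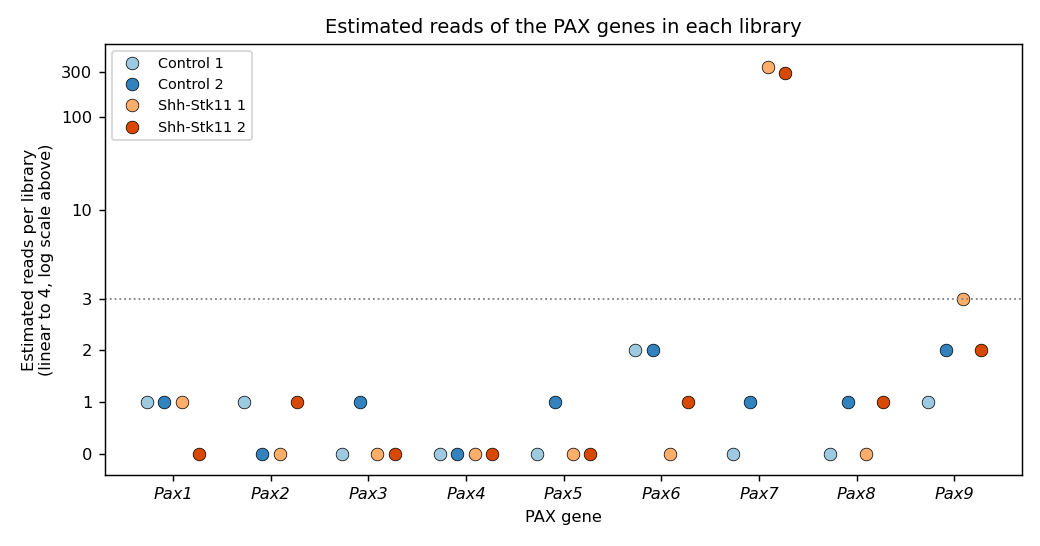
Estimated reads (vertical axis, linear up to 4 and logarithmic above) of the 9 PAX genes (horizontal axis), with 1 point per library; the dotted line marks the floor of 3 reads used for counts of 0. Pax7 stands at 342 and 296 reads in the Shh-Stk11 libraries, while the points of the other 8 genes lie at or below 3 reads in all 4 libraries.

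The other 8 PAX genes were close to 0 in both genotypes. Their highest value in any library was 0.041 FPKM, that of Pax9 in Shh-Stk11 1, and none held more than 3 estimated reads in a library. These estimates are the fewest reads that fit the values, and the single values of Pax3 and Pax5 were each assumed to be 1 read. On these estimates they summed to 13 reads in the Control and 9 reads in the Shh-Stk11 libraries. At this depth no difference between genotypes was detectable for them, no fold is given, and none passed the filter for a test. Of the whole family only Pax7 lay above the level of 2 FPKM that led to its choice, and Pax9 was the next below.

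Pax3, the closest relative of Pax7 and like it a regulator of muscle progenitors and neural crest, had 1 read in Control 2 and none in the other 3 libraries. Its only value, 0.00998 FPKM, was taken as 1 read. Pax3 was thus not detected in the Shh-Stk11 libraries, where Pax7 was high.

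In the sclerotome subgroup, Pax1 had 1 read in Control 1, Control 2 and Shh-Stk11 1 and none in Shh-Stk11 2, at up to 0.0133 FPKM. Pax9, which patterns pharyngeal pouches, teeth and palate, had 1 read in Control 1, 2 reads in Control 2, 3 reads in Shh-Stk11 1 and 2 reads in Shh-Stk11 2. It was the only PAX gene besides Pax7 with a read in both Shh-Stk11 libraries, and its genotypes overlapped.

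In the kidney, thyroid and B cell subgroup, Pax2 had 1 read in Control 1 and 1 read in Shh-Stk11 2. Pax8, a regulator of thyroid and kidney, had 1 read in Control 2 and 1 in Shh-Stk11 2, at 0.0136 and 0.013 FPKM. Pax5, which commits cells to the B lineage, had a value in Control 2 only, 0.0316 FPKM, taken as 1 read. That step implies a transcript of 1231 bases, and a longer one would mean more reads. In the eye and islet subgroup, Pax6 had 2 reads in each Control, none in Shh-Stk11 1 and 1 in Shh-Stk11 2. Pax4, which acts in islet beta cells, was listed at 0 in every library.

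**Figure D2:**
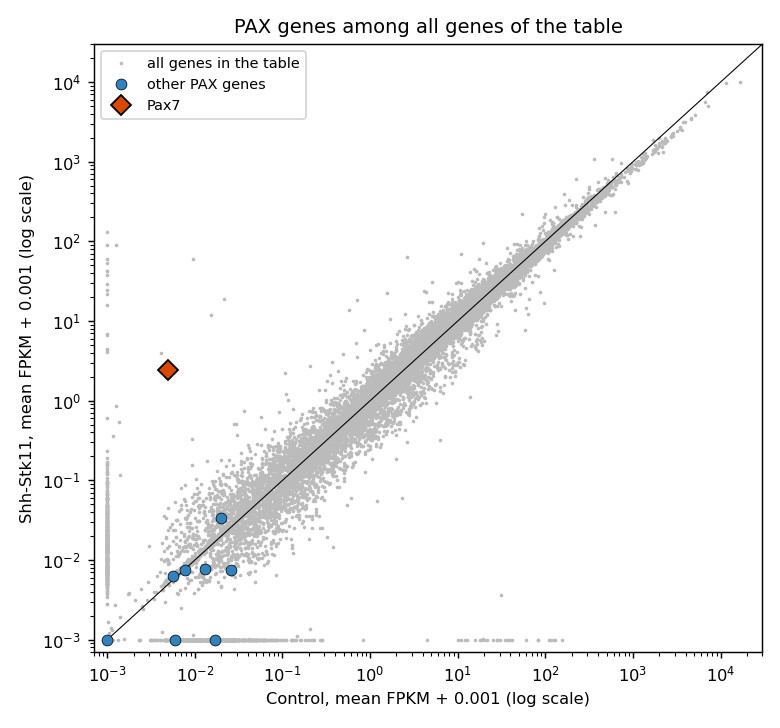
Mean FPKM of each gene of the table in Control (horizontal) and Shh-Stk11 (vertical), both on log scales after adding 0.001 so that zeros can be drawn, with n = 2 libraries per genotype; the line marks equal means. Pax7 lies far above the line at a Shh-Stk11 mean of 2.45 FPKM, while the other 8 PAX genes lie in the low corner, none above 0.041 FPKM in a library.

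Reads of 1 PAX gene could in principle be assigned to another because the paired domain is conserved, so the transcripts were compared. Of 5858 windows of 50 bases, the read length, in the Pax7 transcripts of GENCODE M21, 0 occurred in a transcript of another gene. The window nearest to another PAX gene still differed by 4 bases, and 0 windows lay within 2 mismatches. The comparison covers annotated transcripts, not the reads themselves or the rest of the genome, and the assignment of the reads was not tested.

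The extent of the contrast in Pax7 was set beside that of the whole table. With limits chosen after the values were seen, under 0.05 FPKM in both Controls and over 1 FPKM in both Shh-Stk11 libraries, 2 of 22556 genes, or 0.00887%, met both limits. They were Pax7 and the small nucleolar RNA gene Snord7, and 6151 genes met the first limit. In the opposite direction 4 genes met the limits, all of them small RNA genes (Mir1199, Mir214, Mir671 and Snord123). Reads of small RNA genes are scaled to very short lengths, so a few reads make large FPKM values.

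The libraries also differed in sex. Xist, which is transcribed from the inactive X chromosome, was at 65.1, 90.7 and 169 FPKM in Control 1, Control 2 and Shh-Stk11 1 and at 0.239 FPKM in Shh-Stk11 2. Ddx3y, which lies on the Y chromosome, reached 23.5 FPKM in Shh-Stk11 2 but at most 0.0285 FPKM elsewhere. Pax7 was at 2.72 FPKM in the Shh-Stk11 library with Xist and at 2.19 FPKM in the one with Ddx3y, and at or near 0 in both Controls, which had Xist.

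The genes around Pax7 on chromosome 4, in the order of RefSeq on GRCm38.p6, were read beside it. Among the 5 nearest listed genes on each side, 7 were tested with limma and 0 passed the adjusted threshold or an unadjusted p of 0.05, beside 2.27% and 15.2% of all genes tested. Towards lower coordinates, the taste receptor gene Tas1r2 did not exceed 0.0114 FPKM in any library, and Aldh4a1, a mitochondrial enzyme of proline degradation, lay between 10.6 and 11.9 FPKM. Iffo2 lay between 6.32 and 7.52 FPKM. The ubiquitin ligase gene Ubr4 was at 13.2 and 8.37 FPKM in Control against 18.6 and 13.3 FPKM in Shh-Stk11, a log2 fold change of 0.57 with an SE of 0.25 (adjusted p = 0.359, limma, n = 2 per genotype), which was 0.90 without Control 1 and 0.25 without Control 2, and 0.33 without Shh-Stk11 1. Mrto4, a ribosome assembly gene, lay between 25.3 and 34.7 FPKM. Towards higher coordinates, the nearest listed gene, Klhdc7a, was at 1.23 and 1.22 FPKM in Control against 0.923 and 0.782 FPKM in Shh-Stk11, with an adjusted p of 0.436 (limma, n = 2 per genotype). Igsf21 was at or below 0.0181 FPKM, Padi6 was listed at 0 throughout, Arhgef10l lay between 6.86 and 7.7 FPKM, and Rcc2, a regulator of chromosome passage through mitosis, between 41.0 and 49.8 FPKM. None of the 10 had both Controls near 0 and both Shh-Stk11 libraries above 1 FPKM.

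PAX factors act through partners and a network of further regulators, and 11 lists of such genes and of the lineages that PAX factors specify were read from the same comparison. Of 150 genes, 149 were in the table, 26 were listed at 0 in every library and 50 were tested. The adjusted threshold was passed by 0 of the 50, beside 2.27% of all genes tested. An unadjusted p under 0.05 was reached by 13 of the 50, 6 higher and 7 lower in Shh-Stk11, or 26%, beside 15.2% of all genes tested. The median log2 fold change of the 50 was -0.08, and that of all genes tested was -0.05.

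**Figure D3:**
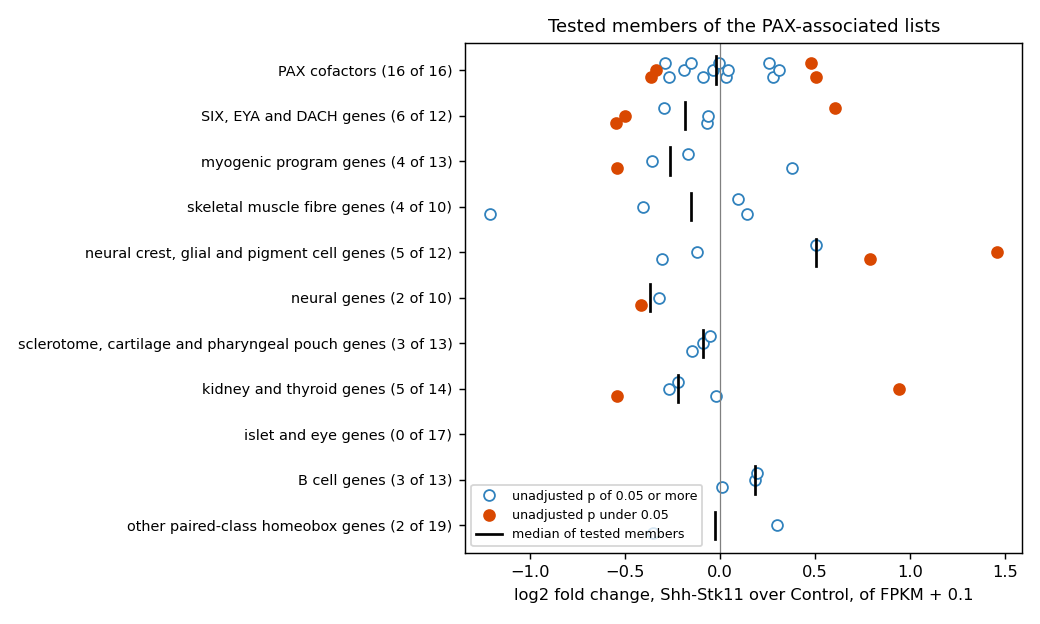
Log2 fold change of FPKM + 0.1 (horizontal axis, Shh-Stk11 over Control, n = 2 libraries each) of the tested members of 11 PAX-associated lists (rows, with the number tested of the number in the table), filled where the unadjusted limma p is under 0.05. The medians of the 10 lists with tested members lie between -0.37 and 0.50, and 0 members pass the adjusted threshold.

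The PAX cofactors were expressed throughout, and all 16 were tested. Their summed level was 342 and 372 FPKM in Control against 340 and 327 FPKM in Shh-Stk11. Paxbp1, which links PAX3 and PAX7 to histone methylation, was at 12.8 and 18.3 FPKM in Control against 22.3 and 21.2 FPKM in Shh-Stk11, a log2 fold change of 0.50 with an SE of 0.18 (limma, adjusted p = 0.259, n = 2 per genotype). Without Control 1 it was 0.25, and without Control 2 it was 0.76. The corepressor gene Tle3 was at 10.5 and 8.28 FPKM in Control against 13.8 and 12.2 FPKM in Shh-Stk11, with an adjusted p of 0.215 (limma). Pagr1a, a partner of the PAX interacting protein PAXIP1, was at 27.7 and 31.9 FPKM in Control against 22.9 and 23.1 FPKM in Shh-Stk11, with an adjusted p of 0.236 (limma). These 3 genes had the largest changes of the list, and no change passed the adjusted threshold. An unadjusted p under 0.05 was reached by 4 of the 16, 2 higher and 2 lower in Shh-Stk11, beside 15.2% of all genes tested. The lung thus held RNA for PAX cofactors in both genotypes, including Carm1 and the methyltransferase subunits Wdr5, Ash2l, Rbbp5 and Dpy30, between 15.9 and 127 FPKM.

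The sine oculis related factors, EYA coactivators and DACH factors form a network that works with PAX factors in muscle, kidney and sense organs. Of 12 genes, 6 were tested, 1 higher and 2 lower at an unadjusted p under 0.05, beside 15.2% of all genes tested. The coactivator and phosphatase gene Eya1 was at 1.75 and 1.49 FPKM in Control against 2.6 and 2.42 FPKM in Shh-Stk11, with a log2 fold change of 0.61 (limma, adjusted p = 0.201, n = 2 per genotype). Dach1 was at 9.79 and 9.04 FPKM in Control against 7.39 and 5.54 FPKM in Shh-Stk11, and Eya2 at 6.47 and 5.42 FPKM in Control against 3.69 and 4.67 FPKM in Shh-Stk11. Their adjusted p-values were 0.187 and 0.252 (limma). Six3 and Six6, which act in eye and forebrain, were listed at 0 in every library.

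Of the 13 myogenic genes, those of muscle determination had few or no reads. Myf6, Myod1 and Lbx1 were listed at 0 in every library. Myf5, the determination factor that PAX7 activates in muscle progenitors, had 8 reads in Control 1, 1 read in Control 2 and none in either Shh-Stk11 library. Myog had 1 read in Control 2 and 1 in Shh-Stk11 2, and Cdh15, the M-cadherin of satellite cells, had 1 read in Control 2 only. These genes are named for their place in the program after their values were seen.

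Other members of the list had signal in every library. Of the 13 genes, 4 passed the filter, and 1 of these was lower at an unadjusted p under 0.05, beside 15.2% of all genes tested. Megf10, a receptor gene of satellite cells, lay between 1.06 and 1.4 FPKM, Msc, which encodes a repressor of myogenic factors, between 0.236 and 0.365 FPKM, and the calcitonin receptor gene Calcr between 0.0562 and 0.0992 FPKM. In each of these 3 the genotypes overlapped. Dmrt2, below the filter, had an estimated 4 and 5 reads in Control and 2 and 3 reads in Shh-Stk11. The laminin receptor gene Itga7 was at 3.79 and 2.85 FPKM in Control against 2.02 and 2.45 FPKM in Shh-Stk11, a log2 fold change of -0.54 (limma, adjusted p = 0.295, n = 2 per genotype), or -0.34 without Control 1. Met, the receptor of hepatocyte growth factor, was at 9.47 and 6.79 FPKM in Control against 10.8 and 10.1 FPKM in Shh-Stk11 (adjusted p = 0.402, limma). Fgfr4 was at 14.2 and 14.1 FPKM in Control against 14.2 and 8.51 FPKM in Shh-Stk11, so that 1 library set its difference. The summed level of the list was 29.5 and 25.3 FPKM in Control against 28.5 and 22.7 FPKM in Shh-Stk11, and the genotypes overlapped. Most of this sum came from the receptor genes Fgfr4 and Met, so it is not a measure of muscle determination genes.

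The summed level of skeletal muscle fibre genes overlapped between the genotypes. It was 15.5 and 27.7 FPKM in Control against 17.8 and 15.4 FPKM in Shh-Stk11, with the highest sum in Control 2. Creatine kinase gene Ckm made up much of this spread, at 5.04 and 12.2 FPKM in Control against 5.63 and 1.97 FPKM in Shh-Stk11 (log2 fold change -1.21, limma adjusted p = 0.38, n = 2 per genotype). Its log2 fold change was -1.84 without Control 1, -0.58 without Control 2, -1.95 without Shh-Stk11 1 and -0.47 without Shh-Stk11 2. The troponin genes Tnnt3 and Tnni2 lay between 1.03 and 2.03 FPKM. Mylpf, a large part of the sum, lay between 7.14 and 10.5 FPKM and overlapped. Among members below the filter, Acta1 was at 0.364 and 0.387 FPKM in Control against 0.158 and 0.172 FPKM in Shh-Stk11. Myh3 also lay lower in both Shh-Stk11 libraries, whereas Myh8 lay higher in both. Of the 10 genes, 4 were tested and 0 reached an unadjusted p under 0.05, against the same 15.2%.

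Neural crest, where Pax3 and Pax7 also act, was read from 12 genes, of which 5 were tested, with 2 higher at an unadjusted p under 0.05 beside 15.2% of all genes tested. Ret, the receptor of glial cell line derived neurotrophic factor, was at 0.331 and 0.292 FPKM in Control against 0.956 and 1.11 FPKM in Shh-Stk11, with a log2 fold change of 1.46 and an SE of 0.31 (limma, adjusted p = 0.0766, n = 2 per genotype). With a pseudocount of 1 its log2 fold change was 0.63. Ret was past the adjusted threshold with the filter at 0.1 FPKM (adjusted p = 0.0488) and with variances moderated without the trend (adjusted p = 0.0162). Over the other alternatives the adjusted p lay between 0.0715 and 0.247. The neuregulin receptor gene Erbb3 was at 18.8 and 10.9 FPKM in Control against 20.8 and 19.9 FPKM in Shh-Stk11 (adjusted p = 0.411, limma). Its unadjusted limma p was 0.0846, so it was not among the 2 genes under 0.05. For both Ret and Erbb3, each Shh-Stk11 value exceeded each Control value.

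The defining crest factors Sox10 and Foxd3 overlapped between the genotypes. Sox10 was at 0.167 and 0.202 FPKM in Control against 0.22 and 0.0959 FPKM in Shh-Stk11, Foxd3 was at or below 0.0727 FPKM, and the pigment gene Tyrp1 was listed at 0 throughout. The sum of the list was 23.7 and 15.0 FPKM in Control against 25.9 and 25.2 FPKM in Shh-Stk11, of which Erbb3 held the largest share. The part of such cells in the Pax7 values was not tested.

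Among 10 neural genes, Zic1, Olig2 and Dbx1 were listed at 0 in every library. Of the 10, 2 were tested, and 1 was lower at an unadjusted p under 0.05, beside 15.2% of all genes tested. The summed level was lower in both Shh-Stk11 libraries, 7.65 and 7.92 FPKM, than in the Controls, 9.79 and 11.7 FPKM. Most of this sum came from the single gene Stmn2. Stmn2, a microtubule regulator of growing axons, was at 8.44 and 9.17 FPKM in Control against 6.12 and 7.05 FPKM in Shh-Stk11 (limma, log2 fold change -0.42, adjusted p = 0.229, n = 2 per genotype).

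Lineages of the remaining PAX genes had few members above the filter. Of 13 sclerotome, cartilage and pharyngeal pouch genes, 3 were tested and 0 reached an unadjusted p under 0.05, against 15.2% of all genes. They were the mesenchymal homeobox genes Meox1 and Meox2, at 6.19 to 7.9 FPKM and 29.3 to 38.0 FPKM, and the chemokine gene Ccl25, at 1.75 to 2.16 FPKM. Nkx3-2, Uncx, Pth and Psmb11 were listed at 0.

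Of 14 kidney and thyroid genes, 5 were tested, with 1 higher and 1 lower at an unadjusted p under 0.05, beside 15.2% of all genes tested. The cadherin gene Cdh16, known from kidney and thyroid epithelium, was at 35.6 and 32.2 FPKM in Control against 22.5 and 23.9 FPKM in Shh-Stk11, a log2 fold change of -0.54 with an SE of 0.12 (limma, adjusted p = 0.0852, n = 2 per genotype). Gdnf, which encodes the ligand of RET, was at 0.445 and 0.412 FPKM in Control against 0.725 and 1.15 FPKM in Shh-Stk11, with a log2 fold change of 0.94 (limma, adjusted p = 0.254), or 0.43 with a pseudocount of 1. The groups of both genes did not overlap. The factor Hhex was at 14.4 and 16.8 FPKM in Control against 13.1 and 12.7 FPKM in Shh-Stk11 (adjusted p = 0.414, limma). The thyroglobulin gene Tg was at or below 0.0629 FPKM.

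Of 17 islet and eye genes 0 passed the filter, 6 were listed at 0, and their summed level was 0.822 and 0.909 FPKM in Control against 0.704 and 0.71 FPKM in Shh-Stk11. The crystallin gene Cryaa had the highest mean over the 4 libraries, at 0.352 and 0.392 FPKM in Control against 0.0668 and 0.155 FPKM in Shh-Stk11, where the islet amyloid gene Iapp was at 0.199 and 0.247 FPKM. Iapp had an estimated 0 and 1 reads in Control and 3 and 4 reads in Shh-Stk11, at or close to the floor of 3 reads. Nkx2-2, a homeobox factor of islets and ventral neural tube that was picked after its values were seen, was listed at 0 in both Controls and had an estimated 5 reads in Shh-Stk11 1 and 17 in Shh-Stk11 2, at 0.0352 and 0.111 FPKM.

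The B lineage, where Pax5 acts, was read from 13 genes. Of these, 3 were tested, with 0 at an unadjusted p under 0.05, where 15.2% of all genes tested had one. Cd79b was at 10.7 and 10.8 FPKM in Control against 9.44 and 12.3 FPKM in Shh-Stk11, the early B cell factor gene Ebf1 lay between 2.45 and 3.81 FPKM, and Vpreb3 between 0.561 and 0.903 FPKM. Of the other paired-class homeobox genes, relatives of the PAX factors in their homeodomain, 19 were in the table and 2 were tested. Prrx1, a mesenchymal factor, was at 4.81 and 4.37 FPKM in Control against 5.85 and 5.47 FPKM in Shh-Stk11 (limma, adjusted p = 0.408, n = 2 per genotype). Prrx2 was at 3.05 and 3.88 FPKM in Control against 2.78 and 2.58 FPKM in Shh-Stk11, with an adjusted p of 0.448 (limma).

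Genes with the pattern most like that of Pax7 were sought across the table by the distance between centred log2(FPKM + 0.1) values over the 4 libraries. This ranks genes on the contrast that chose Pax7, so their values are a description without a test. The nearest were Fbp1 and Fbp2, which encode fructose bisphosphatases of gluconeogenesis, at distances of 0.422 and 0.493. Fbp1 was at 0.642 and 0.516 FPKM in Control against 13.8 and 13.7 FPKM in Shh-Stk11, and Fbp2 at 0.531 and 0.902 FPKM in Control against 23.0 and 14.2 FPKM in Shh-Stk11. Both had a measurable level in Control, unlike Pax7.

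Oosp1, named for secretion by oocytes, followed at a distance of 1.2, with 0.118 and 0.0951 FPKM in Control against 2.04 and 2.39 FPKM in Shh-Stk11. The epidermal growth factor family ligands Ereg and Areg came next and slightly further down. Ereg was at 0.16 and 0.249 FPKM in Control against 3.15 and 2.38 FPKM in Shh-Stk11, and Areg at 11.0 and 10.9 FPKM in Control against 75.6 and 64.4 FPKM in Shh-Stk11. The phosphodiesterase gene Pde10a was at 0.66 and 0.707 FPKM in Control against 5.67 and 4.88 FPKM in Shh-Stk11.

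The kinase gene Pak3, the cystatin gene Cst8, Ccdc83 and the RNA-binding protein gene Rbm24 completed the 10, with distances up to 2.06. Rbm24, a splicing regulator of heart and skeletal muscle, was at 1.63 and 1.75 FPKM in Control against 9.73 and 11.6 FPKM in Shh-Stk11. Cst8 was the least even within a genotype, at 1.27 and 0.447 FPKM in Control. No other PAX gene was among the 10, and Pax3 stood at a distance of 4.69, rank 14041 of 22555, where the median distance was 4.62.

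**Figure D4:**
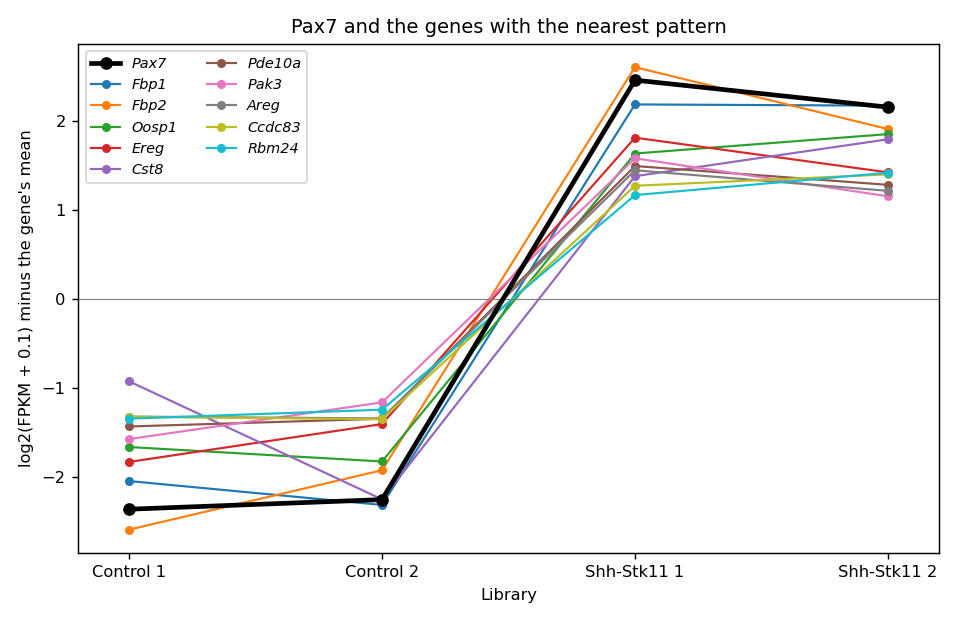
Log2(FPKM + 0.1) of Pax7 (black) and of the 10 genes nearest to it in pattern, minus each gene's own mean (vertical axis), in the 4 libraries (horizontal axis); lines only join the points of a gene. All 11 genes lie below their mean in both Controls and above it in both Shh-Stk11 libraries, with Pax7, Fbp1 and Fbp2 the widest apart.

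Markers of the main cell types of the lung were read beside Pax7. Among the 6 epithelial markers, Cdh1 was at 130 and 105 FPKM in Control against 165 and 162 FPKM in Shh-Stk11 (limma, adjusted p = 0.184, n = 2 per genotype), and Nkx2-1 and Foxa2 also lay higher in both Shh-Stk11 libraries. Sftpc was at 17426 and 15784 FPKM in Control against 8005 and 12048 FPKM in Shh-Stk11 (limma, adjusted p = 0.447), Sox2 also lay lower in both Shh-Stk11 libraries, and Epcam overlapped. The red cell gene Alas2 was at 112 and 111 FPKM in Control against 74.6 and 75.6 FPKM in Shh-Stk11 (limma, adjusted p = 0.0748), and both globin genes lay lower in both Shh-Stk11 libraries. The leukocyte gene Ptprc was at 1.63 and 1.33 FPKM in Control against 2.15 and 3.11 FPKM in Shh-Stk11 (limma, adjusted p = 0.196), whereas the macrophage genes Csf1r, at 8.55 to 9.32 FPKM, and Cd68, at 10.1 to 17.0 FPKM, overlapped between the genotypes. The 6 mesenchymal and endothelial markers had log2 fold changes between -0.38 for Pdgfra and -0.03 for Col1a1, and Col1a1 and Kdr overlapped between the genotypes. Of the 18 markers 0 passed the adjusted threshold of limma and 6 had an unadjusted p under 0.05, beside 2.27% and 15.2% of all genes tested, and their part in the Pax7 values was not tested.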

How the data were processed

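RNA of whole E16.5 lungs was sequenced as single-end 50-base reads. The authors deposited a single table, which gives an FPKM for each gene in each library. The submitters' processing notes list TopHat2 2.0.13, Cufflinks 2.2.1 and the builds GRCm38 and mm9, with no roles, so no coordinates are given. All 4 value columns matched a library. FPKM are not counts, and no count model was used.

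Genes whose mean reached 0.5 FPKM were tested in R 4.3.3 with limma 3.58.1 on log2(FPKM + 0.1), with genotype as the only term, eBayes with trend (4.48 prior and 2 residual degrees of freedom), two-sided tests and Benjamini-Hochberg adjustment over all 13770 genes. Folds on this scale understate changes of low genes. An exact permutation test of 2 against 2 cannot give a two-sided p below 0.333. The script was tested on simulated data.

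Reads were estimated from steps in low values. Of 1806 genes above 0 and below 0.3 FPKM in all libraries, 75.1% were whole multiples, with at most 10 steps in the lowest library. The tolerance was 0.01 of a read up to 10 reads and grew in proportion to the count above that. Depth came from 183 single-transcript genes, with 240 bases taken off the length. A gene with a single value above 0 was taken to have 1 read. The largest step that made all values of a gene whole was used, so estimated reads are the fewest that fit.

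The PAX members and the gene lists were chosen with earlier results of these data known. Of the list genes, 4 were found under older symbols. Named are all PAX genes, Stk11, of each list members past the threshold and the 3 with the largest change, or the highest where none was tested, 5 neighbours on each side, and the 10 genes nearest in pattern. Some list genes that this rule would name are not reported here. Any other gene was named after its values were seen. Alternatives were pseudocounts of 1 and 0.01, filters of 0.1 and 5 FPKM and none, quantile and median ratio scaling, eBayes without trend, a replicate block and leaving out each library. Sequence of the proteins was not used here.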

Additional observations from a re-analysis of the deposited data

How the results depend on the processing

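The log2 difference of Pax7 was 1.78 with a pseudocount of 1 and 7.52 with 0.01, against 4.61, lay between 4.46 and 4.76 when each library was left out, and was 4.63 with quantile or median ratio scaling. With 5 FPKM as the minimum Pax7 did not pass the filter. In the main fit it passed and is counted among the 135 genes higher, but it was selected on this contrast, so that call is no support. Genes higher and lower numbered 135 and 178. With each library left out they numbered 40 to 129 and 64 to 190, the fewest without a Control library (44 and 65 without Control 1, 40 and 64 without Control 2), and 85 were higher without Shh-Stk11 1. With a minimum of 5 FPKM, 90 were lower, from fewer genes tested. With no filter limma called 0 higher and 1 lower, with 1191 and 1372 at an unadjusted p under 0.05. Same-numbered libraries did not deviate together (correlation of deviations -0.114). This cannot show whether the numbers pair libraries, for example by litter, and Shh-Stk11 2 also differed in sex. With the replicate block 6 genes were higher and 7 lower. Crossing the pairing, added after the data were seen, gave 360 and 315 with 2 list members. List members past the threshold were 1 instead of 0 with a minimum of 0.1 FPKM or without the trend, Ret in both, and 0 with each library left out and with the block. Of 431 values of 34 named genes with a test under the alternatives, 405 kept direction and call, 11 lost the call (all Stk11), 2 gained it and 13 turned sign, each with 1 library left out. The log2 fold changes then lay between -0.12 and 0.035 for Aldh4a1, -0.028 and 0.13 for Arhgef10l, -0.20 and 0.094 for Ccl25, -0.18 and 0.20 for Cd79b, -0.10 and 0.48 for Ebf1, -0.73 and 0.0084 for Fgfr4, -0.26 and 0.084 for Meox1, -0.31 and 0.018 for Meox2, -0.39 and 0.071 for Mrto4, -0.18 and 0.46 for Tnni2, and -0.064 and 0.44 for Vpreb3. Where no value shows it, the cause was not tested. A library left out leaves a genotype with 1 library, assumed to vary like the other. With 2 libraries per genotype and 0 to 3 estimated reads, differences in the other 8 PAX genes were not detectable.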
